A study of Rattus norvegicus with 48 samples.

Results

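The 9 genes described here belong to the glucocorticoid response and were followed across every lung of a rat inhalation study: Nr3c1, Fkbp5, Zbtb16, Klf9, Cebpd, Tsc22d3, Sgk1, Errfi1 and Ddit4. They were picked by symbol, and all 9 were found among the 30045 genes of the count tables and passed the filter on low counts. Male Sprague-Dawley rats breathed filtered air or oil vapor at 300 ppm in whole-body chambers, 6 h per day. The single schedule was 1 exposure day, and the repeated schedule was 4 days per week for 4 weeks, which made 16 exposure days. Animals were killed 1 or 28 days post exposure. Schedule, time and treatment thus formed 8 groups, with 6 rats apiece. Each of the 48 libraries was made from the RNA of a piece of lung of 1 animal, and levels are given as CPM, the usual scaling of counts to 1 common library total.

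Glucocorticoids, corticosterone in the rat, enter the cell and bind the glucocorticoid receptor, the product of Nr3c1, which is held ready by Hsp90 and its co-chaperones and then acts on genes in the nucleus. Target genes include an inhibitory co-chaperone of the receptor, transcription factors, and brakes on inflammatory and growth signals, and many of them rise quickly after a surge of hormone and fall when it ends. In the lung, glucocorticoids are known for maturation of the alveolar epithelium before birth and for damping of airway inflammation. Hormone release follows the time of day and handling, and neither the hour of death nor a hormone level was among the labels.

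Promoter sequence was examined because several of the genes moved together, and the search was chosen after their values were known. RefSeq windows of the build GRCr8, which is not the build of the counts, were matched by symbol for 7 of the 9 genes, and Zbtb16 and Cebpd were not among them. The 250 bases before each start were used, which gave 12 windows, since some genes had more than 1 start. The core of the receptor's palindromic element, ACANNNTGT, reads the same on both strands and occurred in 1 of the 12 windows, against 5.81% of all 33469 windows of the same length. A longer form of 13 letters, which holds that core with G at its outer 5′ end and C at its outer 3′ end, occurred in 0 of 12 and in 0.373% of all windows, and the half-site AGAACA or TGTTCT in 0 of 12 and in 17.5%. TGACG or CGTCA, the half-site of CREB, the factor that answers cyclic AMP, occurred in 3 of 12 and in 18.2%. CACGTG, the E-box of the clock proteins, occurred in 0 of 12 and in 5.59%, and TATAAA or TTTATA in 4 of 12 and in 12.9%. A match is a description of the letters and not a binding site. A window without one says nothing about the receptor, which often binds far from the start.

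The windows below, 5′ to 3′, show the receptor core (13 letters long in Map3k6) or the CREB half-site in capitals. Matches to TATAAA are not marked, and windows of Sgk1 that held only these are not shown. Fkbp5 is shown as a called gene without any of these matches, and Map3k6 because its level across lungs was among the 3 most like those of 4 of the genes.
Tsc22d3, the second of its start sites, chrX:109065431-109065680, minus strand: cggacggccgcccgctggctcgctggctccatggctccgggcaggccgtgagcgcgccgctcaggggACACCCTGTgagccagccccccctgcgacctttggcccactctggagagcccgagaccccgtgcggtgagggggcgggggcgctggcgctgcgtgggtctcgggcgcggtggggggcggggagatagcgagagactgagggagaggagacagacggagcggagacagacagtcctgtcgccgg
Tsc22d3, the third of its start sites, chrX:109010035-109010284, minus strand: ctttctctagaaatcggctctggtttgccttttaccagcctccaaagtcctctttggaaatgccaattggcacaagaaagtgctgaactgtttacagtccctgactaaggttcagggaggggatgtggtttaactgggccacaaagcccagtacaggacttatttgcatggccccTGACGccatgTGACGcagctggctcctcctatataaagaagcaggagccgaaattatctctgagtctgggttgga
Klf9, chr1:230126396-230126645, plus strand: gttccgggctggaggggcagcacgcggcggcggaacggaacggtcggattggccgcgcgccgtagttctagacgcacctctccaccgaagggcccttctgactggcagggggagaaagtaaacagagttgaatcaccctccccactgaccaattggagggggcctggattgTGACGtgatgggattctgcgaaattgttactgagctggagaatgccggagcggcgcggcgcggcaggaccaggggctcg
Errfi1, chr5:166606591-166606840, plus strand: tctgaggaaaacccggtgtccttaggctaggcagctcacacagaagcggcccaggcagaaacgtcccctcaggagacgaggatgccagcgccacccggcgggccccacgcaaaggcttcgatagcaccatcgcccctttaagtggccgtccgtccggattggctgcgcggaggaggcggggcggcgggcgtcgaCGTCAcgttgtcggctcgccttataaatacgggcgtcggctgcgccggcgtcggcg
Fkbp5, chr20:6543556-6543805, minus strand: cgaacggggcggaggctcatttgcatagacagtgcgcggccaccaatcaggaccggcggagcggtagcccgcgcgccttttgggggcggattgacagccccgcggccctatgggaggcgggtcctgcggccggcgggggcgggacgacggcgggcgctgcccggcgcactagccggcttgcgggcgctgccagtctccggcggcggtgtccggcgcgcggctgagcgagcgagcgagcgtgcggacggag
Map3k6, chr5:150723995-150724244, plus strand: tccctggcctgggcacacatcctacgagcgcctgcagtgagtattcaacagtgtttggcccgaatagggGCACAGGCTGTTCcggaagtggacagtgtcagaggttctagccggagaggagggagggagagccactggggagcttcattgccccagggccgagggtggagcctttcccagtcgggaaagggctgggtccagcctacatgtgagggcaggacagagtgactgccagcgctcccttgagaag
The receptor core of Tsc22d3 began 183 bases before its second start, and the pair of CREB half-sites before the third start began at 75 and 65 bases. In Klf9 the CREB half-site began 79 bases, and in Errfi1 56 bases, before the start. The longer element of Map3k6 began 181 bases before its start. The window of Map3k6 is not part of the counts given above, and the windows of the other most alike genes were not looked at singly.

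The median library held 5.24 M (mega) counts, the deepest 7.16 M and the shallowest 1.54 M. The last was that of animal 43 in the repeated oil vapor group at 1 day. Animals 5 (single, oil vapor, 1 day) and 43 had the highest summed level of erythroid transcripts, 15220 and 46590 CPM. Some results that rest on their groups are also given without them, and the others include them. Sftpc, Ager, Scgb1a1 and Pecam1, which mark alveolar type 2, alveolar type 1, club and endothelial cells, were detected in all 48 libraries. Col1a2, a fibroblast collagen, was listed at 0 in 42 of them. Alas2 and Alb, the erythroid and liver markers, were also above 0 in all 48. When each animal was paired with the one of like rank by animal number in its counterpart group, Alas2 correlated over 24 pairs with r = 0.975 and Alb with r = 0.89, while the 9 genes gave r between -0.182 and 0.283 on the same log2 CPM scale. Of 15322 genes, 252 had r above 0.8, and the median was 0.153. Animals 5 and 43 are such a pair. The labels give no link between these animals, and the contrasts between schedules treat all libraries as independent. The label of animal 32 (single, oil vapor, 28 days) that names a count table names that of the repeated schedule. Its title and dose label place it in the single schedule, its column stands in that table, and they were followed.

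The receptor gene was the steadiest of the 9, and Zbtb16, Ddit4, Fkbp5 and Cebpd varied most between lungs of a group. Nr3c1 ranged from 332 CPM in animal 43 to 499 CPM in animal 37, a 1.5-fold span over 48 lungs. The library of animal 43 had a factor of 0.714 under TMM, the scaling used in the edgeR tests. Its CPM values therefore lie lower than under that scaling, and the span of Nr3c1 rests in part on this library. Zbtb16, which encodes the zinc finger repressor PLZF, ranged from 11.2 CPM in animal 5 to 204 CPM in animal 36, a span of 18.2-fold. Ddit4, which encodes REDD1, an inhibitor of the growth kinase complex mTORC1, spanned 10.1-fold, from 3.32 to 33.6 CPM. The other 6 genes spanned 2.26-fold to 4.2-fold. The SD of log2(CPM + 0.5) within groups was 0.881 for Zbtb16, larger than for 98.9% of the 12540 genes with a mean over 5 CPM, whose median SD was 0.211. It was 0.653 for Ddit4 (98% of genes were smaller), 0.429 for Fkbp5 (94%) and 0.417 for Cebpd (93.3%). Tsc22d3 (0.347, 86.6%), Errfi1 (0.289, 76.1%) and Klf9 (0.26, 67.9%) came next. For Sgk1 it was 0.19, below the median of all genes (41% were smaller), and for Nr3c1 0.0964 (3.94%).

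**Figure D1:**
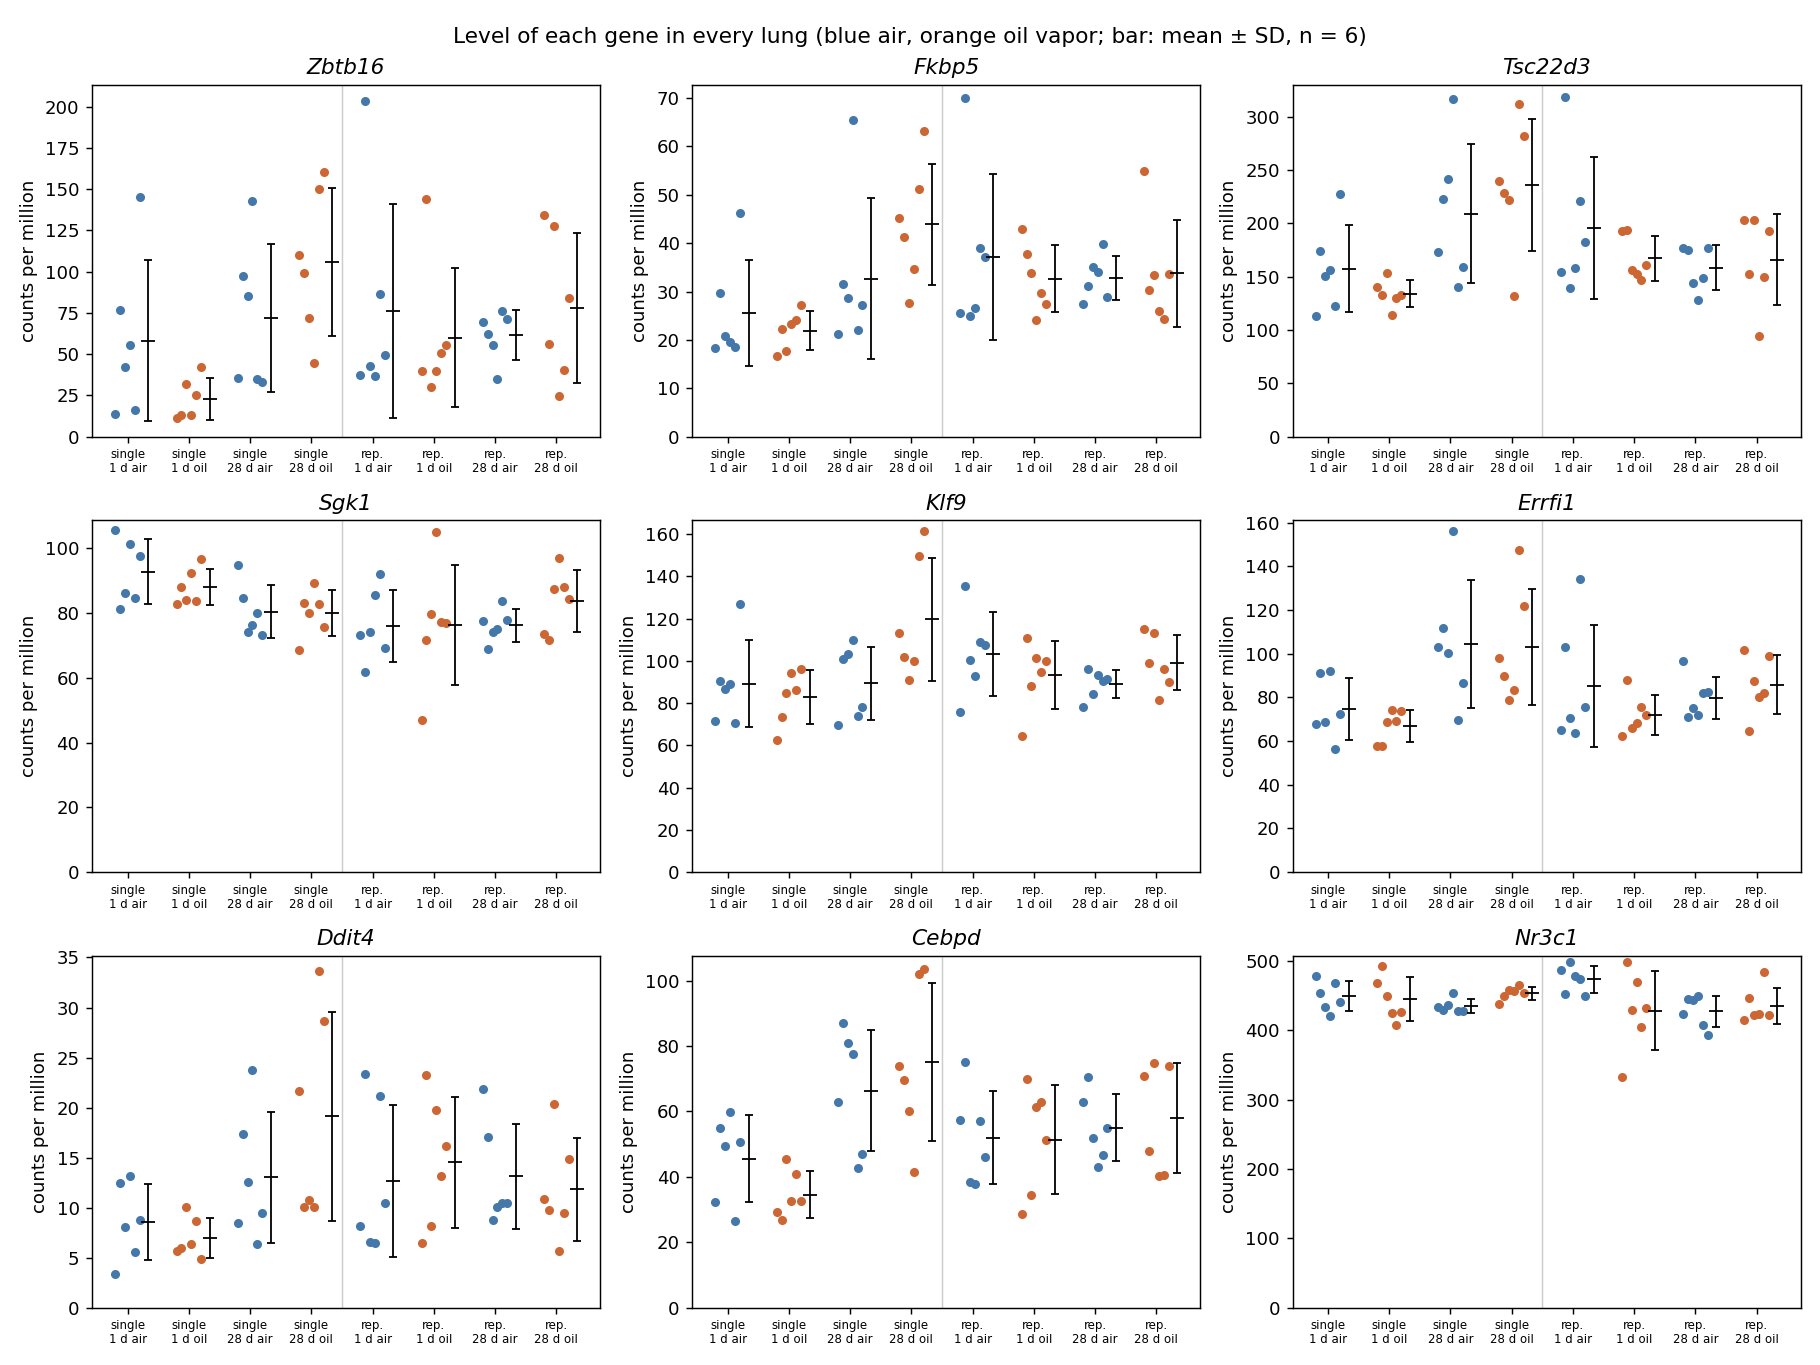
Level of each of the 9 genes in CPM (y axis, from 0) in the 48 lungs, by schedule, time and treatment (x axis; rep. is repeated); points are animals, and bars are the mean ± SD of 6. Zbtb16 spreads from 11.2 to 204 CPM and a single lung tops several groups, whereas Nr3c1 stays between 332 and 499 CPM.

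Of the 8 group means, that of the single oil vapor group at 1 day was the lowest for 7 genes, and that of the single oil vapor group at 28 days was the highest for 6. Zbtb16 had its lowest mean, 22.8 ± 12.7 CPM (SD, n = 6), in the former and its highest, 106 ± 44.6 CPM, in the latter. Nr3c1 had its lowest mean, 427 ± 22.6 CPM, in the repeated air group at 28 days and its highest, 473 ± 19.5 CPM, in the repeated air group at 1 day. Sgk1 was highest in the single air group at 1 day, 92.8 ± 10.01 CPM, and lowest in the repeated air group at 1 day, 75.9 ± 11 CPM. When the 8 groups were put in order of their means, the ranges of all 7 neighbouring pairs overlapped for every one of the 9 genes. In bulk tissue, fewer cells of a type and less RNA per cell cannot be told apart.

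The largest movement was between day 1 and day 28 after the single oil vapor exposure, where 7 of the 9 genes rose and 0 fell. Among all 14820 genes tested, 9.43% passed in either direction and 4.45% were higher, in the quasi-likelihood test of edgeR, at a p below 0.05 after Benjamini-Hochberg adjustment. The 7 were Zbtb16, Ddit4, Cebpd, Fkbp5, Tsc22d3, Errfi1 and Klf9. Sgk1 and Nr3c1 did not pass. The median log2 fold change of the 9 was 0.803, beside -0.00184 over all genes tested. In 3 of the genes, Zbtb16, Fkbp5 and Errfi1, all 6 lungs at 28 days lay above all 6 at 1 day, which held for 2.53% of all genes.

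Among the transcription factors, Zbtb16 was at 11.2, 19.2 and 42.5 CPM (lowest, median and highest of 6 lungs) at 1 day and at 44.4, 104 and 161 CPM at 28 days. The groups did not overlap, though only a narrow gap separated the highest early lung from the lowest late one. The log2 fold change was 2.17 (SE 0.49, adjusted p = 0.00553, edgeR), or 4.49-fold. Cebpd, which encodes the inducible factor C/EBP delta, was at 26.7, 32.6 and 45.5 CPM and then at 41.4, 71.7 and 104 CPM. Of the 6 later lungs, 5 lay above every early one. Its log2 fold change was 1.10 (SE 0.22, edgeR adjusted p = 0.00193), the smallest p of the 9. Klf9, a Kruppel-like factor, was at 62.6, 85.6 and 96 CPM and then at 91.2, 108 and 162 CPM, with 5 of the 6 later lungs above all early ones. It had the smallest fold of the 7, 0.51 on the log2 scale (SE 0.15, edgeR adjusted p = 0.0324). Without animal 5, Klf9 did not pass (log2 0.46, adjusted p = 0.0722), and 6 genes passed. Its call was also lost without animal 6, 7, 14, 31 or 32, with adjusted p values up to 0.0969. Without animal 32, whose labels disagree, 6 genes passed, which were Zbtb16 (2.02), Ddit4 (1.29), Cebpd (0.99), Fkbp5 (0.85, adjusted p = 0.0464), Tsc22d3 (0.75) and Errfi1 (0.56, adjusted p = 0.0464).

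Fkbp5, which encodes FKBP51, the Hsp90 co-chaperone that lowers the hormone affinity of the receptor, was at 16.7, 22.7 and 27.2 CPM at 1 day and 27.6, 43.3 and 63.2 CPM at 28 days. The groups were adjacent but did not overlap, and the fold was 1.97 (log2 0.98, SE 0.26, edgeR adjusted p = 0.0148). Tsc22d3, which encodes GILZ, an anti-inflammatory leucine zipper protein, was at 114, 133 and 153 CPM and then at 132, 234 and 312 CPM. Animal 29 was the only late lung within the early range. The log2 fold change was 0.80 (SE 0.19, edgeR adjusted p = 0.00761).

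The signalling genes did not all move alike. Errfi1, which encodes MIG6, a feedback inhibitor of the EGF receptor, was at 57.6, 68.9 and 74.2 CPM at 1 day and at 78.7, 93.9 and 148 CPM at 28 days, without overlap (log2 0.61, SE 0.16, edgeR adjusted p = 0.0182). It did not pass without animal 31, a late lung and the highest for this gene (log2 0.47, adjusted p = 0.0589), and Klf9 did not pass there either, which left 5 genes. Ddit4 was at 4.89, 6.18 and 10.1 CPM and then at 10.03, 16.2 and 33.6 CPM. Of its late lungs, 4 lay above the early range, and animals 31 and 32 were the highest. The fold was 2.71 (log2 1.44, SE 0.35, edgeR adjusted p = 0.00995). Sgk1, which encodes a kinase that raises activity of the epithelial sodium channel, was at 82.9, 86 and 96.7 CPM and then at 68.7, 81.4 and 89.4 CPM. The ranges overlapped, although 4 of the 6 later lungs lay below every early one (log2 -0.15, SE 0.07, edgeR adjusted p = 0.19). Nr3c1 was at 408, 437 and 493 CPM and then at 438, 455 and 466 CPM, with overlapping ranges and a log2 value of 0.01 (SE 0.05, edgeR adjusted p = 0.901).

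**Figure D2:**
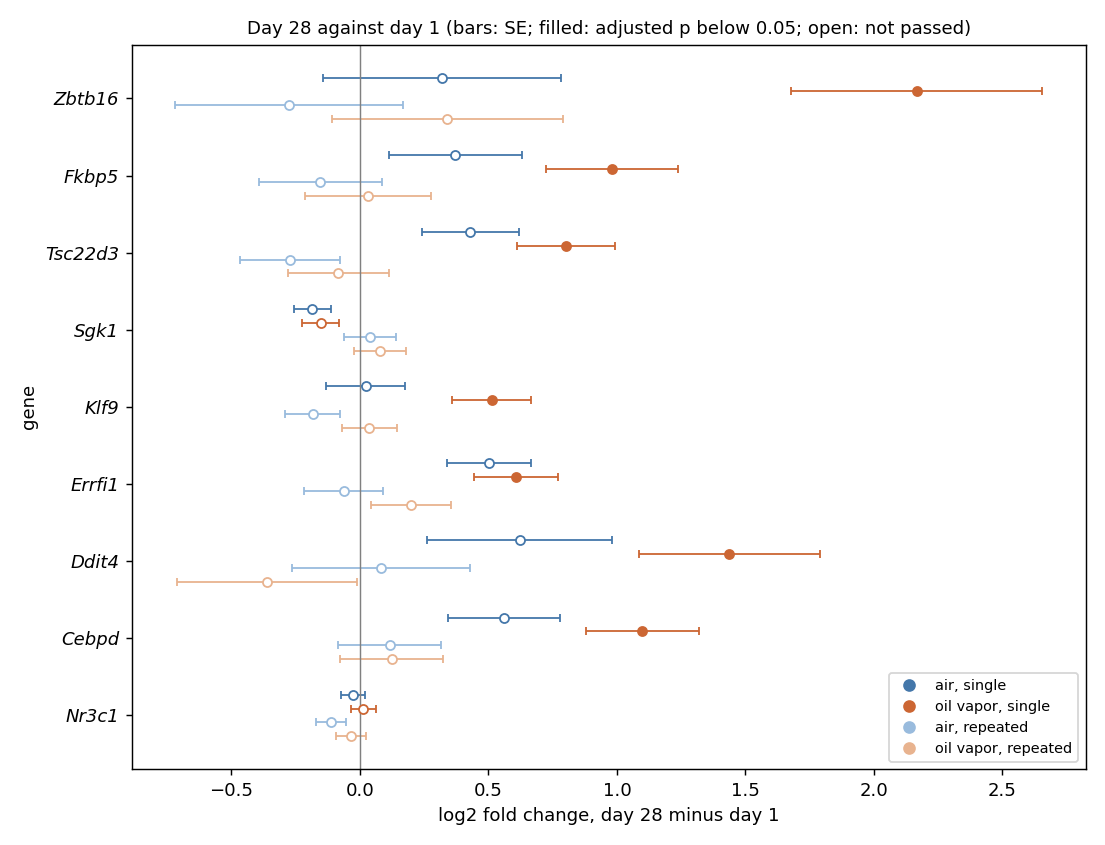
Log2 fold change from day 1 to day 28 (x axis) of the 9 genes (y axis) in air and oil vapor animals of both schedules; points are edgeR estimates, bars are SE, and filled points passed an adjusted p of 0.05. The 7 filled points all belong to the single oil vapor animals, with Zbtb16 at 2.17 and Klf9 at 0.51.

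In air animals of the single schedule, the same interval gave 0 calls of 9 by edgeR, against 3.25% of all genes, with 4 genes at an unadjusted p below 0.05 and 0 called by DESeq2. The values were positive for 7 of the 9 genes, all but Sgk1 and Nr3c1, with a median log2 value of 0.372 beside 0.00297 over all genes. Errfi1 was at 56.4, 70.6 and 92.3 CPM at 1 day and at 69.5, 102 and 156 CPM at 28 days, with 4 of 6 later lungs above the early range (log2 0.50, SE 0.16, edgeR adjusted p = 0.0979). It passed when animal 22, the lowest late lung, was left out (log2 0.60, adjusted p = 0.0402). Cebpd had a log2 value of 0.56 (SE 0.22, edgeR adjusted p = 0.185), Tsc22d3 0.43 (SE 0.19, adjusted p = 0.265) and Sgk1 -0.19 (SE 0.07, adjusted p = 0.187). Ddit4 had 0.62 (SE 0.36), Fkbp5 0.37 (SE 0.26) and Zbtb16 0.32 (SE 0.46), with adjusted p from 0.431 to 0.821. Several of these values depended on animal 20, a late lung. Without it Zbtb16 had -0.00011, Fkbp5 0.045, Tsc22d3 0.27, Ddit4 0.36, Errfi1 0.35 and Cebpd 0.51.

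Whether the interval differed between oil vapor and air was tested as an interaction, which gave 0 of 9 genes, and 0% of all genes, by edgeR. DESeq2 also called 0 of the 9, and 2 were at an unadjusted p below 0.05. All 9 values were positive, between 0.03 and 1.85 on the log2 scale, and the smallest adjusted p was 0.532. Zbtb16 had 1.85 (SE 0.67), Ddit4 0.82 (SE 0.50), Cebpd 0.54 (SE 0.31) and Klf9 0.49 (SE 0.22). A difference between treatments in the change over time was therefore not shown. Time after exposure and the age of the animals cannot be told apart here.

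Some markers of other cells moved over the same interval in the single oil vapor animals, beside 9.43% of all genes called in either direction and 4.45% called higher. Of 9 erythroid markers, 0 were higher and 7 were lower, with a summed level of 2774 to 15220 CPM at 1 day and 1287 to 2873 CPM at 28 days. Of 5 liver markers tested, 4 were lower, with sums of 49.6 to 389 and 36.8 to 61.2 CPM. Of 6 neutrophil markers, 2 were lower, with sums of 117 to 307 and 69.4 to 216 CPM. Some markers of resident lung cells were higher. Of 6 alveolar type 1 markers 2 were higher (sums of 2744 to 3293 and 2993 to 3437 CPM), of 8 airway markers 1 was higher (1134 to 2313 and 1690 to 2998 CPM), and of 5 mesenchymal markers 2 were higher and 1 was lower (719 to 916 and 774 to 940 CPM). Of 8 alveolar type 2 and 6 endothelial markers 0 passed. The airway count, 1 of 8, was near the share of all genes, and the other lists of resident cells were short. The sums of these resident cells overlapped between the times. Of 20 immediate early genes, the first responders to stimulation and handling of tissue, 6 were higher (Fosl2, Klf4, Klf2, Nr4a3, Zfp36 and Klf6), and in the air animals 5 were higher (Klf2, Jun, Nr4a3, Klf6 and Klf4), beside 4.45% and 1.01% of all genes. The part of these cells and genes in the result was not tested. Without animal 5, which had the highest erythroid sum of its schedule, Zbtb16 had a log2 value of 2.04, Ddit4 1.40, Cebpd 1.07, Fkbp5 0.93, Tsc22d3 0.83 and Errfi1 0.58, each still past the threshold (largest adjusted p of these 0.0357, for Errfi1).

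Other known glucocorticoid targets were examined as a list, of which 27 genes were tested. The list was drawn up with earlier results of these data known and was read in the same lungs, so its counts are no separate evidence. Over this interval in the single oil vapor animals, 12 rose and 0 fell (median log2 0.457), beside 4.45% of all genes that rose. The 6 with the smallest p were Txnip, which binds thioredoxin and restrains glucose uptake (log2 0.64, SE 0.06, edgeR adjusted p = 3.77e-07), Scnn1a, the alpha subunit of the epithelial sodium channel (0.86, SE 0.12), Sult1a1, a sulfotransferase (0.71, SE 0.11), Map3k6, a stress kinase (1.32, SE 0.23), Irs2, an insulin receptor substrate (0.48, SE 0.09), and Dusp1, a phosphatase that switches off MAP kinases (1.07, SE 0.20). In air animals of the same schedule 3 rose and 0 fell, beside 1.01% of all genes: Txnip (0.31, SE 0.06), Dusp1 (0.87, SE 0.20) and Irs2 (0.35, SE 0.09). In the interaction 0 of 27 passed by edgeR, and Txnip (0.33, SE 0.08, adjusted p = 0.246) and Scnn1a (0.46, SE 0.16, adjusted p = 0.514) had the smallest p.

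Of 18 tested genes of the receptor axis, the enzymes, chaperones and cofactors that set hormone supply and receptor activity, 4 rose and 1 fell in the single oil vapor animals, beside 9.43% of all genes called in either direction. Hsd11b2, the enzyme that inactivates corticosterone, fell by 1.23 on the log2 scale (SE 0.21, edgeR adjusted p = 0.000375). Its mean went from 7.42 ± 1.73 to 3.18 ± 0.69 CPM (SD, n = 6). This is a low level that rests on few reads, with single lungs between 2.47 and 9.36 CPM. The chaperone genes Hsp90ab1 (log2 0.43), Stip1 (0.48) and Ptges3 (0.22), which encode proteins of the Hsp90 cycle, rose, as did Nr3c2, the mineralocorticoid receptor (0.23). In air animals Hsd11b2 fell too (-0.87, SE 0.20, edgeR adjusted p = 0.0145) and Nr3c2 rose (0.26), 2 of 18 genes beside 3.25% of all. Of 14 clock genes tested, 1 passed in the oil vapor animals, a share near the 9.43% of all genes. It was Tef, a clock-controlled transcription factor, which rose (0.36, SE 0.08, edgeR adjusted p = 0.00353). Per1, a clock gene counted among the other targets and not in this list, rose too, from 55.6 ± 17.7 to 158 ± 31.6 CPM (SD, n = 6). In air 0 of the 14 passed by edgeR, and Arntl, the core activator (0.25, adjusted p = 0.0669), and Per3 (-0.45, adjusted p = 0.211) had the smallest p.

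In the repeated schedule 0 of the 9 genes passed between day 1 and day 28, either in air (0.327% of all genes passed) or in oil vapor (0.34%), by edgeR or DESeq2, and 0 were at an unadjusted p below 0.05. Log2 values lay between -0.28 and 0.12 in air and between -0.36 and 0.34 in oil vapor. Nr3c1 in air animals was at 450, 476 and 499 CPM at 1 day and at 394, 433 and 449 CPM at 28 days. All 6 later lungs lay below all 6 early ones, which held for 1.11% of all genes, yet the fold was small and did not pass (log2 -0.11, SE 0.06, edgeR adjusted p = 0.506). Tsc22d3 had -0.27 (SE 0.20) in air, and Zbtb16 and Ddit4 had 0.34 (SE 0.45) and -0.36 (SE 0.35) in oil vapor. The list of other targets gave 0 of 27 in both, with Cdo1 (-0.27) and Lcn2 (0.59) at the smallest p in air, and Sult1a1 (0.36, edgeR adjusted p = 0.0818) and Map3k6 (0.53, adjusted p = 0.127) in oil vapor.

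Against air, oil vapor gave 0 calls among the 9 genes at either time in either schedule by edgeR and by DESeq2. These comparisons share their groups with those over time and are not separate evidence. At 1 day after the single exposure 0% of all genes passed by edgeR, 1494 of them at an unadjusted p below 0.05, and DESeq2 called 18. All 9 values were lower in oil vapor, with a median of -0.211 beside 0.00975 over all genes. Zbtb16 was at 13.7, 48.8 and 145 CPM in air and at 11.2, 19.2 and 42.5 CPM in oil vapor. The groups overlapped, with the air animals spread over a 10.6-fold range, and 3 of the 6 oil vapor lungs lay below every air lung. The log2 value was -1.31 (SE 0.50, edgeR adjusted p = 0.4), and -0.80 without animal 10, an air lung. Cebpd had -0.39 (SE 0.22, adjusted p = 0.589), Ddit4 -0.30 (SE 0.38), Tsc22d3 -0.22 (SE 0.19) and Fkbp5 -0.21 (SE 0.27). The value for Fkbp5 turned to 0.045 without animal 10, the highest air lung.

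At 28 days after the single exposure 0% of all genes passed by edgeR, and 7 of the 9 values were higher in oil vapor (median 0.149). Klf9 was at 69.8, 89.7 and 110 CPM in air and at 91.2, 108 and 162 CPM in oil vapor, with overlapping ranges and 3 oil vapor lungs above every air lung. Its log2 value of 0.39 (SE 0.15, edgeR adjusted p = 0.499) was the only one of the 9 with an unadjusted p below 0.05. Zbtb16 had 0.53 (SE 0.45), Ddit4 0.51 (SE 0.33) and Fkbp5 0.40 (SE 0.25), which became 0.85, 0.77 and 0.72 without animal 20, an air lung. After the repeated exposure, 0.00666% of all genes passed at 1 day and 0% at 28 days. Values of the 9 lay between -0.28 and 0.27 at 1 day, with 0 at an unadjusted p below 0.05. Zbtb16 had -0.28 (SE 0.45) there and 0.31 without animal 36, an air lung, and Nr3c1 had -0.07 (SE 0.06). Without animal 43 they were -0.30 and -0.08, and 0 of the 9 passed in each comparison that uses its group. At 28 days Zbtb16 had 0.33 (SE 0.44) and Klf9 0.14 (SE 0.11), and 0 of the 9 were at an unadjusted p below 0.05.

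**Figure D3:**
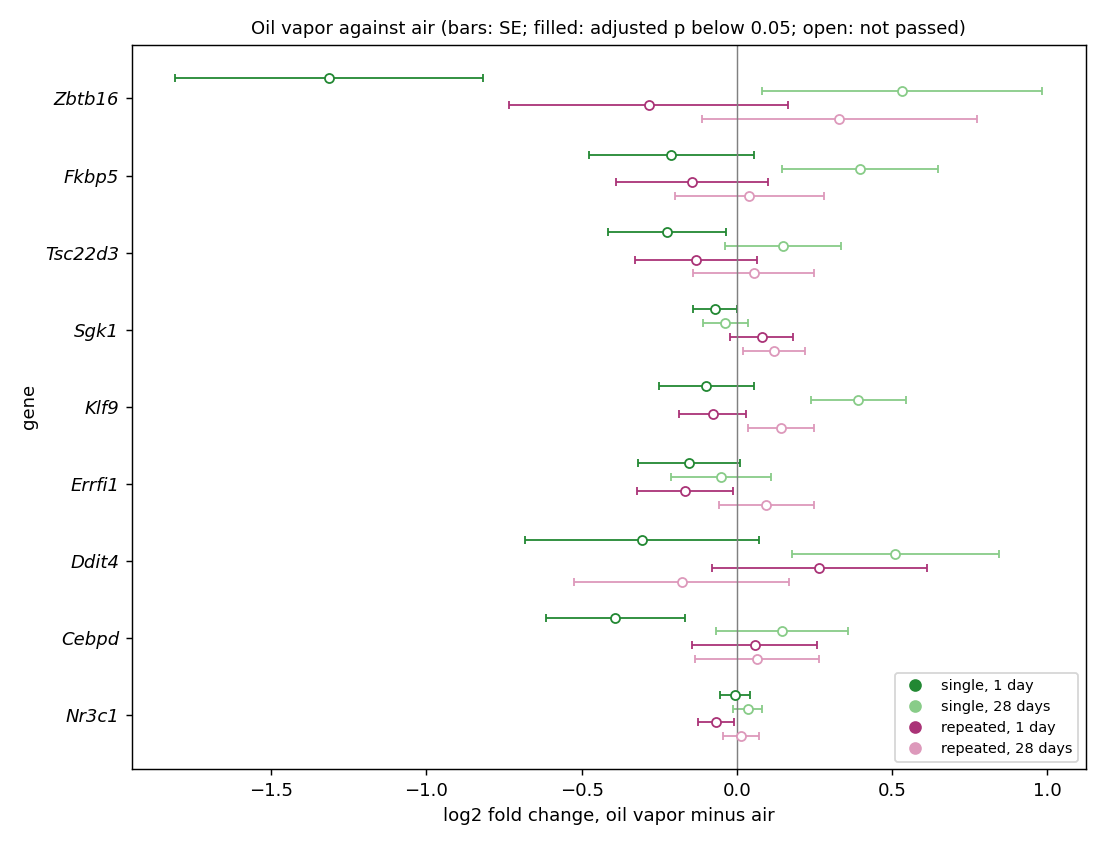
Log2 fold change of oil vapor against air (x axis) of the 9 genes (y axis) at both times of both schedules; points are edgeR estimates and bars are SE. All points are open, since 0 of 9 passed in each comparison, and the widest bars are those of Zbtb16 and Ddit4.

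The list of other targets gave 0 of 27 calls against air at 1 day after the single exposure by edgeR, and Txnip (-0.21, adjusted p = 0.25) and Per1, a clock gene that the hormone induces directly (-0.95, SE 0.30, adjusted p = 0.348), had the smallest p. Per1 was at 108 ± 56.6 CPM in air and 55.6 ± 17.7 CPM in oil vapor (SD, n = 6). The receptor axis gave 0 of 18, with Ncoa2, a coactivator (-0.15, adjusted p = 0.384), at the smallest p. The clock list gave 0 of 14, with Bhlhe40 (-0.30) and Npas2 (-0.23) at the smallest p. Whether the oil vapor effect differed between schedules was tested in a fit of all 48 libraries. It gave 0 of the 9 genes at both times by edgeR and DESeq2, with 0 at an unadjusted p below 0.05. Of all genes, 0.0457% passed by edgeR at 1 day and 0% at 28 days. Zbtb16 had the largest value of the 9 at 1 day, 1.03 (SE 0.70, edgeR adjusted p = 0.656). It was 0.52 without animal 10 and 1.62 without animal 36, both air lungs.

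Between the air groups of both schedules at 1 day, 1 of the 9 genes passed, beside 3.76% of all genes and 2.61% in the same direction. Sgk1 was at 81.3, 91.9 and 106 CPM after the single schedule and at 61.7, 73.7 and 92 CPM after the repeated one, with 4 of the 6 latter lungs below all of the former (log2 -0.31, SE 0.09, edgeR adjusted p = 0.0372). This call was lost when any one of animals 1, 4 and 10 (single) or 34, 36, 37 and 40 (repeated) was left out, with adjusted p values up to 0.126. It was also lost with no filter on low counts (adjusted p = 0.0738). The other 8 values were higher in the repeated group, among them Fkbp5 at 0.53 (SE 0.26, adjusted p = 0.294) and Ddit4 at 0.55 (SE 0.37). At 28 days 0 of 9 passed by edgeR and DESeq2, beside 0.0457% of all genes, with 1 at an unadjusted p below 0.05, Errfi1 (-0.39, SE 0.17, adjusted p = 0.471). Tsc22d3 had -0.40 (SE 0.20). Schedule, age and the separate count tables cannot be told apart in these contrasts.

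Among the other targets 4 rose and 0 fell in the repeated air group at 1 day, beside 1.15% of all genes that rose: Txnip (0.44, SE 0.07, edgeR adjusted p = 2e-04), Sult1a1 (0.43, SE 0.11), Cdo1, the enzyme that oxidises cysteine (0.58, SE 0.15), and Anxa1, the anti-inflammatory annexin (0.25, SE 0.07). Of the receptor axis 0 rose and 1 fell, Hsd11b2 (-1.11, SE 0.19, edgeR adjusted p = 0.000341), from 8.15 ± 1.39 to 3.81 ± 0.73 CPM. The single groups at 1 day, in air and oil vapor, had the highest Hsd11b2 means of the 8. None of the clock genes passed, 0 of 14 by edgeR, and Bhlhe40 (-0.27) and Tef (0.23) had the smallest p.

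Within groups the same animals were high for most of the targets. With group means removed, 19 of the 36 gene pairs had Pearson r above 0.5 over 48 lungs, and none of these involved Sgk1 or Nr3c1. Zbtb16 and Tsc22d3 had the highest r, 0.852 (0.845 in the 24 lungs of the single schedule and 0.862 in those of the repeated one), and Ddit4 and Cebpd had 0.844. The lowest r among the other 7 genes was 0.404, between Fkbp5 and Cebpd. Of the 21 pairs of these 7, all 21 were above 0.5 in the single schedule (lowest 0.502) and 15 in the repeated one. The low pairs there were mostly those of Fkbp5, with 0.285 for Cebpd, 0.301 for Ddit4 and 0.423 for Klf9, against 0.502, 0.605 and 0.837 in the single schedule. The difference between schedules was not tested. Sgk1 had r between -0.359 and 0.11 with those 7, and 0.402 with Nr3c1, which became 0.115 without animal 43. Nr3c1 had r between -0.249 and 0.109 with the 7. These are descriptions, and the points share library, depth and scaling. The share of pairs with r above 0.5 among all genes was not computed.

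**Figure D4:**
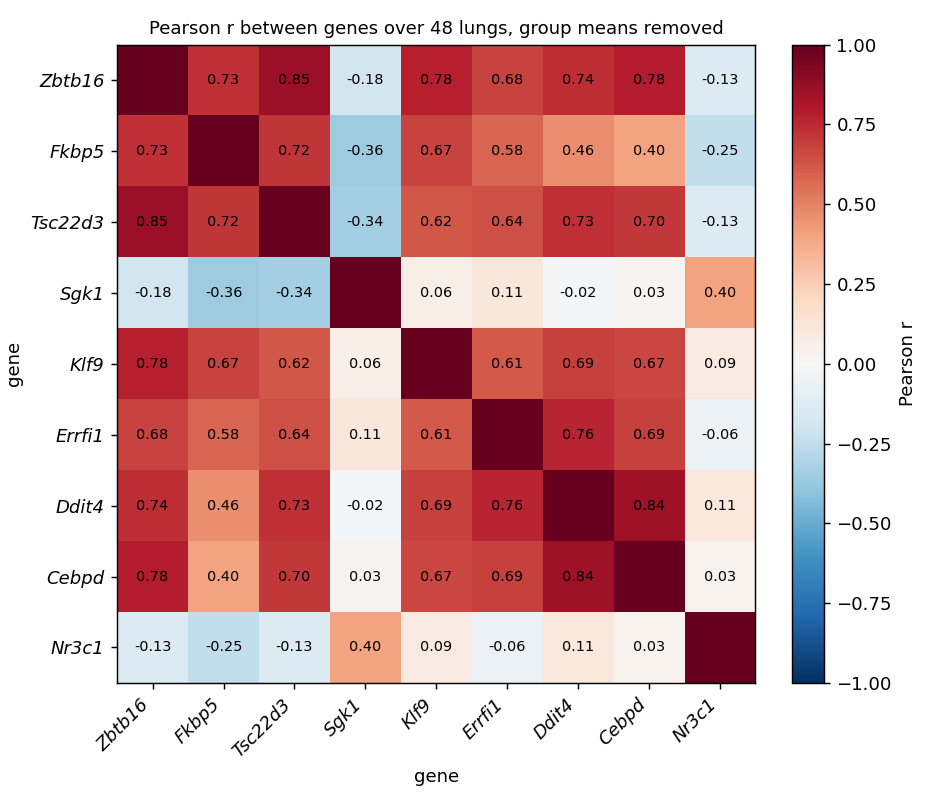
Pearson r between each pair of the 9 genes (both axes) over 48 lungs, computed on log2(CPM + 0.5) after the group mean was removed; color runs from -1 (blue) to 1 (red). The 7 genes other than Sgk1 and Nr3c1 form a block with r from 0.404 to 0.852.

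Single lungs stood at the top of their group for most of these 7 genes. Animal 20 (single, air, 28 days), animal 36 (repeated, air, 1 day) and animal 44 (repeated, oil vapor, 1 day) were each the highest of their group for 6 of the 7, and animal 89 (repeated, oil vapor, 28 days) for 5. This ranking is by CPM. With CPM by the TMM effective library size, Tsc22d3 was at 270 in animal 43 and 194 in animal 44, so animal 44 was not the highest for that gene. In the single oil vapor group at 28 days, animals 32 and 31 shared the top place for 4 and 3 genes. Air and oil vapor animals were both among them. At the other end, animal 93 was the lowest of its group for 5 of the 7. Animal 36 had 204 CPM of Zbtb16, 70 CPM of Fkbp5 and 318 CPM of Tsc22d3, while its Nr3c1, 452 CPM, was among the 2 lowest of its group and its Sgk1, 61.7 CPM, was the lowest.

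**Figure D5:**
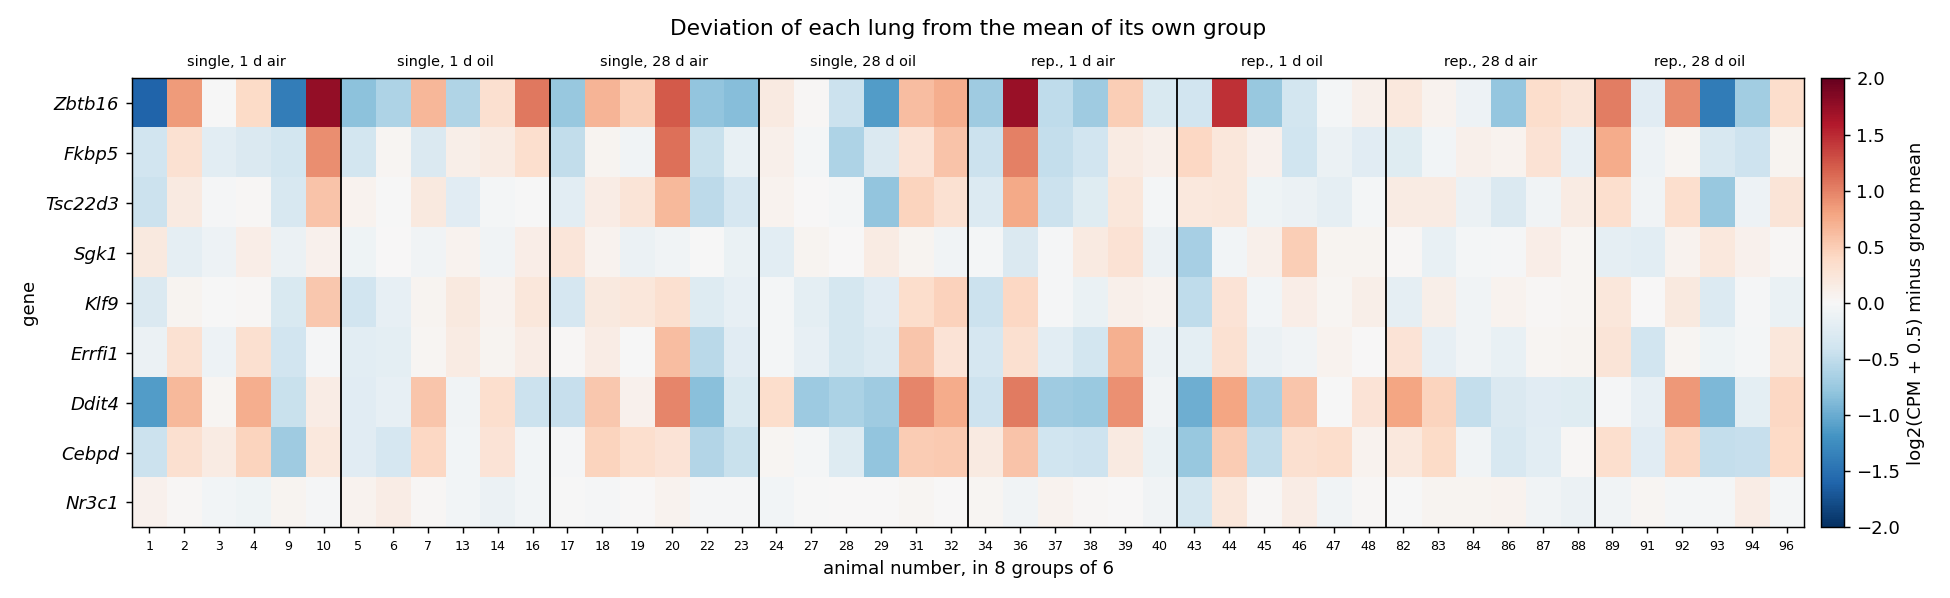
Deviation of each lung (x axis, animal number, in 8 groups of 6) from its group mean for the 9 genes (y axis), as log2(CPM + 0.5); red is above and blue below the mean. Columns such as animals 36, 20 and 93 keep one color over most of the genes, while the Sgk1 and Nr3c1 rows stay pale.

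Likeness was measured as r over the 48 lungs against 12531 other genes with a mean of at least 5 CPM, and the 3 most alike were taken for each gene. For Zbtb16 they were Klf15 (0.841), Per1 (0.833) and Map3k6 (0.83). Map3k6 also ranked first for Klf9 (0.8) and was the third for Fkbp5 (0.654) and Tsc22d3 (0.754), for which Lpin2 was first (0.744 and 0.811). Nfkbia, the inhibitor of NF-kappa B, was first for Ddit4 (0.901) and Errfi1 (0.808) and second for Cebpd (0.848), after Per1 (0.863). The list for Sgk1 was Adam19 (0.798), Runx1t1 (0.754) and Wnt11 (0.753), and that for Nr3c1 was Nedd4 (0.82), Nbeal1 (0.814) and Prex2 (0.812). Without animal 43 the first of these became 0.714 and 0.709, while Zbtb16 with Klf15 became 0.902. Of the 16 genes in these lists, 7 rose, 3 fell and 6 did not pass from day 1 to day 28 in the single oil vapor animals, beside 9.43% of all genes called. They were picked for moving with the 9 genes in the same lungs, so these counts are no separate evidence. Klf15, Per1, Map3k6 and Nfkbia rose by 1.23, 1.49, 1.32 and 0.92 on the log2 scale (edgeR adjusted p = 0.000714, 0.00184, 0.000555 and 0.00389). Lpin2 did not pass (0.24, adjusted p = 0.0991), and the 3 genes most like Sgk1 fell (Adam19 -0.30, Runx1t1 -0.42 and Wnt11 -0.66).

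Library depth and the alveolar type 2 and erythroid markers moved with Sgk1 more than with Zbtb16, but not every marker list did. Within groups, the library total had r = 0.598 with Sgk1 and 0.116 with Zbtb16. The summed alveolar type 2 markers had r = 0.668 with Sgk1, -0.074 with Zbtb16 and -0.194 with Tsc22d3, and the erythroid sum had -0.567, -0.0877 and 0.117. Without animals 5 and 43 the values for Sgk1 became 0.347 for depth, 0.461 for type 2 markers and -0.317 for erythroid markers. Over all 48 lungs the B cell sum had r = -0.304 with Zbtb16 and -0.147 with Sgk1. The T and natural killer cell sum had -0.267 and -0.249. Without animals 5 and 43 the mesenchymal sum had 0.251 with Zbtb16 and -0.126 with Sgk1. Other genes moved with cell markers too. Cebpd had r = 0.454 with the mesenchymal sum (0.363 without animals 5 and 43). Nr3c1 had 0.55 with the endothelial sum (0.178 without them), and Klf9 had -0.378 with the erythroid sum (-0.144 without them). The mean of the immediate early genes had r = 0.531 with Cebpd, 0.25 with Zbtb16 and 0.131 with Tsc22d3. Nr1d1 and Dbp, clock outputs with a strong daily rhythm, had r = -0.0716 and -0.181 with Zbtb16, and -0.269 and -0.342 with Tsc22d3. The part of depth, cell makeup and time of day in these patterns was not tested.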

How the data were processed

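RNA was sequenced from rat lung, 48 animals in 8 groups of 6 taken from the labels. The rat build Rnor_6.0 was used, and the tools were HISAT2 2.1.0 and HTSeq 0.6.1, with Trimmomatic 0.35, SAMtools 1.8 and bcl2fastq 2.19, per the submitters' processing notes. The authors deposited raw counts per gene symbol in 2 tables, 1 per schedule. The strand setting was not given in the sources used here. Totals were 1.54 to 7.16 M (mega) counts, and 0 columns belonged to no sample. All 120 pairs of libraries within groups differed by more than sampling noise (chi-square per gene 2.7 or more).

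Counts were tested two-sided in edgeR 4.0.16 (R 4.3.3) with TMM, filterByExpr and a group-means quasi-likelihood fit, on the 24 libraries of a schedule or, between schedules, all 48, with Benjamini-Hochberg adjustment over all genes tested and a threshold of 0.05. The script was tested on simulated data. SEs were derived from the F statistic, as the log2 value without its sign over the root of F. Correlations used log2(CPM + 0.5). Alternatives were RLE size factors, no filter, DESeq2 1.42.0, all 48 libraries, leaving out each animal, and, added after seeing the data, leaving out animals 5 and 43.

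The 9 genes and the lists were chosen with earlier results of these data known. Named were all 9 genes. From the receptor axis, other target and clock lists, up to 6 genes past the threshold were named, or else the 2 with the smallest p; 1 gene that this rule would name is not reported here. The 3 most alike genes per member were named as well. The immediate early genes were named after their values were seen.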

Additional observations from a re-analysis of the deposited data

Results flagged for a closer look

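Of 72 groups of 6 animals (9 genes in 8 groups), 7 had a lung set apart from the other 5, with a gap to its neighbour, as a share of the whole range, above Dixon's critical ratio. Chance flags about 1 in 20 groups if values are normally distributed, and the groups share animals, so the 7 are not independent. The ratio was taken on CPM without a log, where high lungs stand out more than on the log2 scale used elsewhere. All 7 were the highest of their group, and the ratio was not taken on the log2 scale. Zbtb16 stood at 203.5 CPM in animal 36 (repeated, air, 1 day) and at 144.2 CPM in animal 44 (repeated, oil vapor, 1 day). Fkbp5 stood at 65.57 CPM in animal 20 (single, air, 28 days), at 69.96 CPM in animal 36 and at 54.84 CPM in animal 89 (repeated, oil vapor, 28 days). Klf9 stood at 127 CPM in animal 10 (single, air, 1 day), and Nr3c1 at 454.3 CPM in animal 20, within a group that spanned only 428 to 454 CPM.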

How the results depend on the processing

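The 9 genes gave the same number of calls in all 14 comparisons under RLE size factors and DESeq2, and in the 10 comparisons within a schedule when all 48 libraries were fitted together. With no filter on low counts, the call of Sgk1 between air groups at 1 day was lost (0 of 9 called). No paired analysis was possible because the labels give each animal its own number, shared by no 2 groups. The order of the numbers, used above to set animals side by side, is no label and entered no fit. Leaving out each animal in turn gave 5 to 7 of the 9 genes between day 28 and day 1 in single oil vapor animals, 0 to 1 in single air animals and 0 to 1 between air groups at 1 day. Over all genes, these fits called 1074 to 1340 between day 28 and day 1 in single oil vapor animals. Zbtb16, Fkbp5, Tsc22d3, Ddit4 and Cebpd passed in 12 of 12 such fits, Errfi1 in 11 and Klf9 in 6.

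Values that changed sign when an animal was left out were all near 0 or uncalled. Fkbp5 in single oil vapor against air at 1 day ranged from -0.29 to 0.045, Nr3c1 over time in single oil vapor from -0.0079 to 0.046, Zbtb16 over time in single air from -0.00011 to 0.83, and Zbtb16 in repeated oil vapor against air at 1 day from -0.74 to 0.31. The cause was not tested.

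Counts over all genes moved by over 1.5 times more often. DESeq2 called 18 and 30 genes for oil vapor against air at 1 and 28 days after the single exposure and 49 for their difference (edgeR 0, 0 and 0), 99, 22 and 108 after the repeated one (edgeR 1, 0 and 1), 191 and 364 over time in repeated air and oil vapor (edgeR 49 and 51), 49 between air groups at 28 days (edgeR 7) and 47 for the schedule difference of the oil vapor effect at 1 day (edgeR 7). With no filter these were 11 for the single time difference, 0 for repeated oil vapor at 1 day, 23 over time in repeated oil vapor, 0 for the repeated time difference and 4 between air groups at 28 days. RLE gave 0 for the repeated time difference. All 48 libraries gave 0 for repeated oil vapor at 1 day, 131 and 430 over time in repeated air and oil vapor, and 36 for the repeated time difference. Without animals 5 and 43 the counts were 32 for repeated oil vapor at 1 day, 156 over time in repeated oil vapor, 3 for the repeated time difference and 4 for the schedule difference at 1 day. Leaving out single animals gave 0 to 3 and 0 to 9 for single oil vapor at 1 and 28 days, 0 to 10 for their difference, 315 to 516 over time in single air, 0 to 32 for repeated oil vapor at 1 day, 2 to 60 and 4 to 156 over time in repeated air and oil vapor, 0 to 4 for the repeated time difference, 320 to 615 and 1 to 9 between air groups at 1 and 28 days, and 0 to 25 for the schedule difference at 1 day. The causes were not tested. All 72 group means moved by less than 1 SD with CPM by the TMM effective library size. Ddit4 rested on few reads, 10 counts in the shallowest library.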
